A study of Mus musculus with 30 samples.

Results

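The circadian clock of each cell is a loop of transcription in which Arntl (BMAL1) and its partner Clock switch on the Period genes, Ciart and the nuclear receptors Nr1d1 and Nr1d2, whose products in turn repress Arntl-driven or Arntl transcription. Dbp and Tef carry the rhythm to output genes as activators at D-box elements, and Nfil3 is the repressor at the same elements. Because Arntl transcripts peak about opposite to Dbp, Per and Nr1d1 transcripts, tissue taken at different hours differs in a known way.

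The genes followed here were 10 such genes (10 of 50508 rows in the striatum table and of 53278 in the SVZ table), namely Arntl, Per1, Per2, Per3, Ciart, Nr1d1, Nr1d2, Dbp, Tef and Nfil3. They were picked as a list of clock and clock output genes around Nfil3, and Nfil3 itself was selected on its low striatal level in NestinTK+GCV+ mice, so its values in comparisons that hold these mice are a description and carry no test. All 10 passed the filter on low counts in both tissues, where 15419 striatum and 16375 SVZ genes were tested.

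The mice were C57Bl/6. NestinTK+ mice carried the thymidine kinase of herpes simplex virus under an enhancer of the Nestin gene that is active in neural precursor cells, so that ganciclovir (GCV), given for 4 weeks by minipump, kills dividing precursors. NestinTK- mice were littermates without the transgene, and PBS was the vehicle. There were 5 NestinTK+GCV+ mice (ablated), 3 NestinTK-GCV+, 3 NestinTK-PBS+ and 4 NestinTK+PBS+, and the last 3 groups made up the 10 controls. The striatum and the subventricular zone (SVZ) of the same 15 mice were sequenced in bulk, the striatum from transcript 3′ ends and the SVZ over whole transcripts, which gave 2626962 to 4693441 counts per striatum library and 8360810 to 21056005 per SVZ library. The hour at which a mouse was killed is not given in the sources used here.

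Levels are given as CPM, a gene's counts scaled to library size with TMM factors. The p-values are from edgeR's quasi-likelihood F-test, and the adjusted ones (Benjamini-Hochberg) take in every gene tested in a tissue. P-values measure the spread between these mice. In bulk tissue, fewer cells of a type and less RNA per cell cannot be told apart. The library numbers in the labels run to 10 for GCV mice and start at 11 for PBS mice in both tissues, so numbering order and treatment cannot be told apart. Within a group, mice are numbered as replicates, with the same number in both tissues, and values are listed in that order.

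Markers were set against the tissue labels. The striatum libraries held 8115 to 11257 CPM summed over 9 markers of medium spiny neurons, the main striatal neuron, except for that of NestinTK+PBS+ mouse 4 with 4178. That library also had 1754 CPM on 8 thalamus markers, a list added after seeing the data, against 88.8 to 165 in the other 14, and 1413 CPM on choroid plexus markers against 13.1 to 47.2. In the SVZ the same mouse again had the highest thalamus sum, 571 CPM against 43.5 to 112. The SVZ libraries, labelled as neural precursor cells, held 3845 to 12483 CPM of the spiny neuron list, a range that spans the striatal one, and 59.4 to 546 CPM of 6 neuroblast markers (59.4 to 198 in ablated mice and 176 to 546 in controls). Choroid plexus Ttr took 4.49 to 9.88% of counts in the SVZ of NestinTK-PBS+ mice 1 and 2 and NestinTK+PBS+ mouse 1 and at most 0.0789% in the others. The sum over 5 markers of cortical excitatory neurons ran from 0.534 to 615 CPM in the SVZ, with a median of 4.56.

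The sequences at the gene starts show which clock elements the members carry. In RefSeq windows of 250 bases before to 50 after each start (GRCm38.p6), 9 of the 10 genes had an entry, in 12 windows. Per2 had none. The E-box CACGTG, bound by the Arntl and Clock pair, was found for 3 genes (Ciart, Per1 and Tef). The D-box (TTATGTAA or TTACGTAA) was found for 1 gene, Per3. The core of the element bound by Rev-erb and Ror receptors (TAGGTCA or TGGGTCA) was found for 2 genes, Nfil3 and Arntl, and the cAMP element TGACGTCA for none. Over all 32851 windows in the table, searched on both strands, 7.15% held the E-box, 1.06% the D-box, 6.45% the receptor core and 1.79% the cAMP element. These matches are descriptions of letters, and Dbp, Nr1d1 and Nr1d2 had none of the 4 in their windows.

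Ciart had 3 E-boxes and Per3 had 2 D-boxes, so their upstream stretches (5′ to 3′, minus strand, without annotated exons) are shown first, with the elements in capitals. Ciart lies at chr3:95882252-95882478 and Per3 at chr4:151044666-151044915.
Ciart: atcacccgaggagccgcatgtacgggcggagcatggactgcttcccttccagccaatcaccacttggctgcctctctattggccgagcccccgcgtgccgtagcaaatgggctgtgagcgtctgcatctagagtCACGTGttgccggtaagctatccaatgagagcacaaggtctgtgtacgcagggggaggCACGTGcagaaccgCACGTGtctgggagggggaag
Per3: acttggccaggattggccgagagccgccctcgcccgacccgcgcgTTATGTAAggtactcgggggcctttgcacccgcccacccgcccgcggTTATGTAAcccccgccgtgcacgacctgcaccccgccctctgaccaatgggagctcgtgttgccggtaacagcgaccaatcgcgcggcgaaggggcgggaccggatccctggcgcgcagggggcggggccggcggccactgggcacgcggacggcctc

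Around the receptor core of Nfil3 (chr13:52981034-52981063, minus strand, where the core reads on the opposite strand) and Arntl (chr7:113207529-113207558, plus strand), and around the E-boxes of Per1 (chr11:69098771-69098800, plus strand) and Tef (chr15:81802534-81802563, plus strand), 30 bases are given.
Nfil3: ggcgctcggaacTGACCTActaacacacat
Arntl: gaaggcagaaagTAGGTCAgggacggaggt
Per1: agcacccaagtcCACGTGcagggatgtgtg
Tef: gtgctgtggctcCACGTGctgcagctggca

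Nfil3, the D-box repressor, had few striatal reads. The gene lies at chr13:52967209-52981073 (GENCODE, GRCm38, minus strand) and shares no exon bases with another gene. The 5 ablated mice had 6, 4, 3, 10 and 8 counts (2.11, 1.45, 1.11, 2.84 and 2.66 CPM). NestinTK-GCV+ mice had 11, 34 and 26 counts (2.99, 8.51 and 6.14 CPM), and NestinTK-PBS+ mice had 28, 24 and 17 (6.67, 5.23 and 4.11 CPM). NestinTK+PBS+ mice had 15, 18, 22 and 17 counts (3.94, 6.64, 4.79 and 4.54 CPM).

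Every ablated library thus lay below every control library, but the closest pair, 2.84 and 2.99 CPM, rested on 10 and 11 counts. Their exact Poisson 95% intervals, which cover counting error only, were 4.80 to 18.4 and 5.49 to 19.7 counts. Without TMM factors the groups overlapped, at 2.97 CPM in ablated mouse 4 and 2.93 in NestinTK-GCV+ mouse 1. The mean was 2.03 ± 0.748 CPM (SD, n = 5) in ablated mice and 5.36 ± 1.64 (SD, n = 10) in controls, a log2 fold change of -1.36 (SE 0.34). Of all genes, 0.253% had every ablated library below every control, and 0.694% passed a nominal threshold of 0.01 in edgeR with at least a 2-fold change. Nfil3 was the member in both counts, and since it was selected on this contrast nothing is read from that.

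For ganciclovir or the transgene alone, no Nfil3 difference was shown in the striatum. NestinTK-GCV+ and NestinTK-PBS+ striata differed by a log2 fold change of 0.14 (SE 0.44, 95% interval -0.72 to 1.01, adjusted p = 0.918), and NestinTK+PBS+ and NestinTK-PBS+ striata by -0.11 (SE 0.42, 95% interval -0.94 to 0.71, adjusted p = 0.985). Both intervals are wide enough to hold a change of more than 1.5-fold. The control libraries also entered the contrast on which Nfil3 was selected. These comparisons are therefore not independent of its choice and are given as descriptions.

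In the SVZ, which the choice of Nfil3 did not use, the difference was not shown. Ablated mice had 0.3601, 1.39, 11.2, 1.496 and 14.3 CPM, from 3, 10, 91, 14 and 115 counts. NestinTK-GCV+ mice had 23.9, 2.42 and 5.46 CPM, NestinTK-PBS+ mice 6.96, 12.8 and 25.1, and NestinTK+PBS+ mice 4.86, 13.5, 1.961 and 4.12. The libraries of ablated mice 1, 2 and 4 lay below all controls, and those of mice 3 and 5 lay within the control range. The log2 fold change was -0.82 (SE 0.83, 95% interval -2.44 to 0.80, adjusted p = 0.822). It ran from -1.47 without ablated mouse 5 to -0.50 without ablated mouse 1. Under the other alternatives it ran from -1.40 by limma-voom to -0.08 with the mouse number series as a covariate. The adjusted p was from 0.64 to 0.996 throughout. Since all ablated mice are of the higher series, the fit with this covariate cannot fully separate series from ablation. Ablated mouse 3 had the lowest Nfil3 of all in the striatum and the second highest of the ablated mice in the SVZ.

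**Figure D1:**
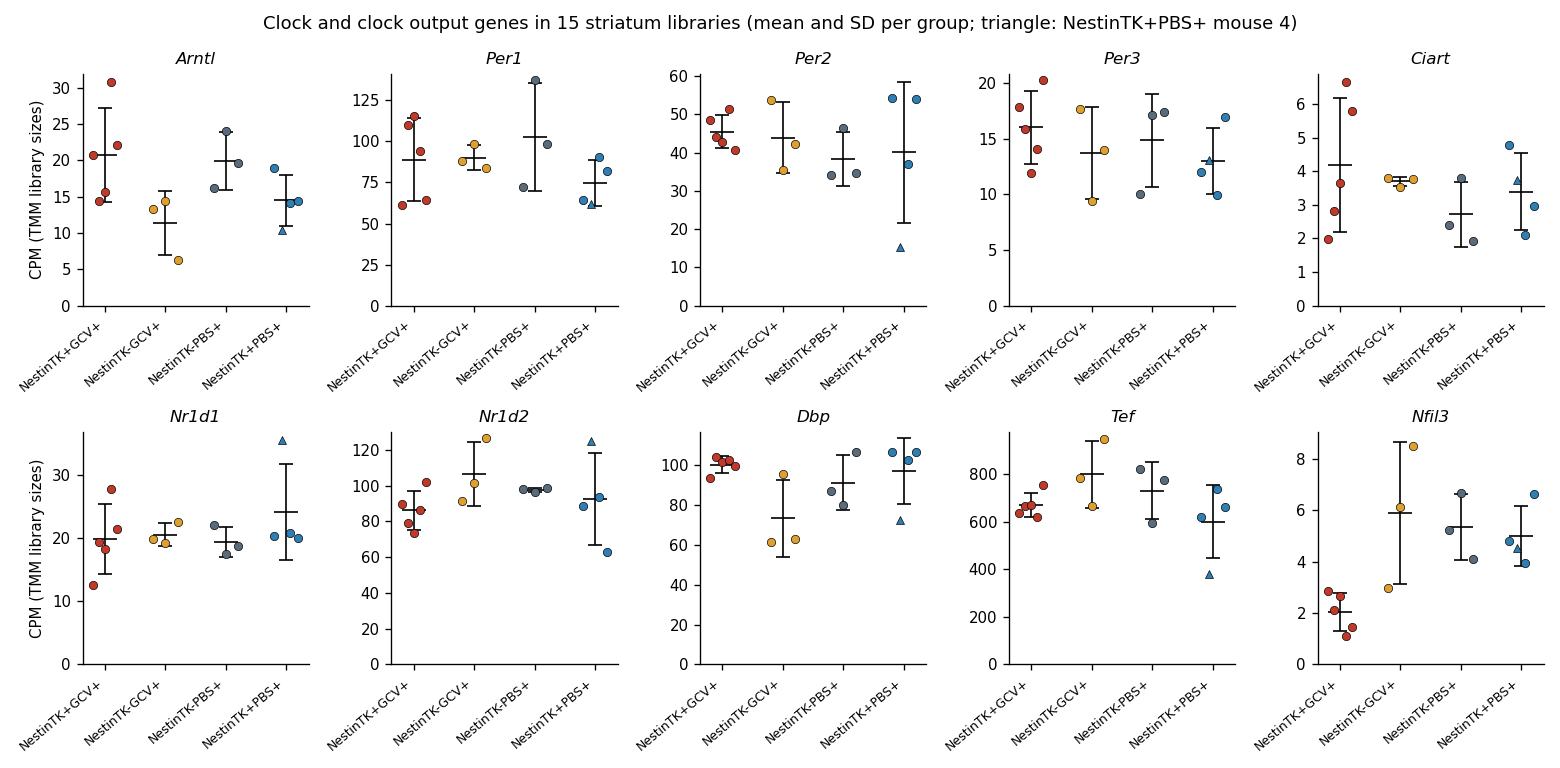
CPM (vertical axes, from 0) of the 10 genes in the 15 striatum libraries, 1 point per mouse, with the mean and SD of each group. The 5 NestinTK+GCV+ points of Nfil3 lie between 1.11 and 2.84 CPM, below all controls, and for the other 9 genes ablated and control points overlap, with the triangle, NestinTK+PBS+ mouse 4, far from its group for Tef, Per2, Nr1d1 and Dbp.

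Arntl, the activator of the loop, differed most in the striatum among the members other than Nfil3. It lies at chr7:113207465-113314126 (plus strand). NestinTK-GCV+ mice had 13.3, 6.26 and 14.4 CPM, NestinTK-PBS+ mice 24.1, 16.1 and 19.6, and NestinTK+PBS+ mice 14.2, 14.4, 18.9 and 10.4. Ablated mice had 14.4, 22.1, 30.7, 20.7 and 15.6 CPM. Without the transgene, then, all 3 GCV striata were below all 3 PBS striata. The 5 ablated striata also lay above the 3 NestinTK-GCV+ striata, by a narrow gap (14.448 against 14.403 CPM), and overlapped with the NestinTK-PBS+ ones. The shares of all genes that separate in these ways were not counted, so nothing is read from either. The log2 fold change of NestinTK-GCV+ over NestinTK-PBS+ was -0.81 (SE 0.32, unadjusted p = 0.0171), which did not pass adjustment (adjusted p = 0.19). In the SVZ of the same mice it was 0.93 (SE 0.72, adjusted p = 0.821).

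The Period genes are the repressors of the loop, and Per1 is also an immediate response gene. Per1 lies at chr11:69095217-69109960 (plus strand), Per2 at chr1:91415982-91459324 and Per3 at chr4:151003652-151044665 (both minus strand). Striatal Per1 ran from 61.0 to 137.5 CPM with all 4 groups overlapping, and was highest in NestinTK-PBS+ mouse 1, whose sum over 11 activity-induced genes (Fos, Arc, Npas4 and others) was also the highest, 1663 CPM against 521 to 998 in the other 14. The part of activity-induced transcription in the Per1 level was not tested. NestinTK+PBS+ striata had 74.8 ± 13.9 CPM (SD, n = 4) of Per1 and NestinTK-PBS+ 103 ± 32.8 (SD, n = 3), a log2 fold change of -0.46 (SE 0.22, adjusted p = 0.772).

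Per2 lay between 34.02 and 54.2 CPM in 14 striatum libraries and at 15.2 in that of NestinTK+PBS+ mouse 4, and Per3 between 9.44 and 20.3 CPM. Ciart, a repressor of the Arntl and Clock pair at chr3:95878503-95882251 (minus strand), had 7 to 22 counts per striatum library (1.94 to 6.66 CPM). All 4 groups overlapped for these 3 genes. The log2 fold change of Per2 for NestinTK+PBS+ over NestinTK-PBS+ was 0.06 (SE 0.27, adjusted p = 0.985), and 0.33 without mouse 4.

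Nr1d1 and Nr1d2 encode the Rev-erb receptors, repressors of Arntl and Nfil3. They lie at chr11:98767932-98775333 and chr14:18204054-18239127 (both minus strand). Nr1d1 was 12.5 to 27.7 CPM in 14 striata and 35.5 in NestinTK+PBS+ mouse 4, and Nr1d2 was 62.7 to 127 CPM. The 3 NestinTK-PBS+ striata had almost the same Nr1d2 level, 97.6 ± 1.196 CPM (SD, n = 3), and the ablated mice 86.2 ± 11.0 (SD, n = 5). Of its 3077 exon bases, Nr1d1 shares 263 with Thra on the opposite strand. No source used here says whether counting used strand, so reads in that stretch cannot be assigned to either gene. For NestinTK+PBS+ over NestinTK-PBS+ striata the log2 fold change of Nr1d1 was 0.32 (SE 0.25, adjusted p = 0.93), and 0.07 without mouse 4.

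Dbp and Tef, the D-box activators, lie at chr7:45705088-45710203 and chr15:81802421-81826863 (both plus strand). Ablated mice had 104, 99.4, 102, 93.3 and 102 CPM of Dbp. NestinTK-GCV+ mice had 61.2, 62.8 and 95.6, NestinTK-PBS+ mice 79.8, 86.8 and 107, and NestinTK+PBS+ mice 102, 106, 107 and 72.6. The ablated libraries held the narrowest range, inside that of the controls, and the lowest values were in 2 of the 3 NestinTK-GCV+ mice. From highest to lowest, Dbp spanned 1.74-fold over the 15 striata. Dbp shares 539 exon bases with Sphk2 and Tef 193 with Gm17597, each on the opposite strand, so the same limit holds for reads there. Tef was 596 to 948 CPM in 14 striata and 381 in NestinTK+PBS+ mouse 4.

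Over the 15 striata, the SD of log2 CPM was 0.273 for Dbp, 0.292 for Tef, 0.258 for Nr1d2 and 0.352 for Per1, where the median gene had 0.417. Larger SDs were held by Nfil3 (0.706), Arntl (0.521), Ciart (0.458) and Per2 (0.449), the last falling to 0.241 without NestinTK+PBS+ mouse 4. Nfil3 had only 3 to 34 and Ciart 7 to 22 counts per striatum library. Counting error is part of these SDs, and genes were not matched on level. In the SVZ the median gene had an SD of 1.01 and members ran from 0.332 (Tef) to 1.62 (Nfil3).

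For the group comparisons in the striatum, 0 of 10 members passed an adjusted p of 0.05 between NestinTK-GCV+ and NestinTK-PBS+ mice, where 2.06% of all genes did. At an unadjusted p of 0.05, 1 member (Arntl) passed, against 16.1% of genes. Between NestinTK+PBS+ and NestinTK-PBS+ mice it was 0 of 10 (0.0% of genes), and 1 (Per1) unadjusted against 6.41%. DESeq2 and limma-voom called 0 members in either comparison.

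Ablated against control striata gave 0 of 10 at an adjusted p of 0.05 (0.182% of genes). Ablated against NestinTK+PBS+ gave 0 (0.149%), and against NestinTK-GCV+ 0 (3.13%). These comparisons hold the mice on which Nfil3 was selected, and their members are described only by size. Besides Nfil3, the log2 fold changes against control ran from -0.19 (SE 0.13) for Nr1d2 to 0.44 (SE 0.23) for Arntl. Dbp was at 0.19 (SE 0.14), Tef at -0.06 (SE 0.14), Per1 at 0.02 (SE 0.17), Per2 at 0.16 (SE 0.20), Per3 at 0.22 (SE 0.20), Ciart at 0.33 (SE 0.34) and Nr1d1 at -0.13 (SE 0.19). The median over the 10 members was 0.09 and over all genes 0.00. Arntl, Dbp, Per2, Per3 and Ciart were above 0 and Nr1d1 and Nr1d2 below it, each by less than 2 SE. Collection hour was not recorded in the sources used, and its part in these levels was not tested.

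**Figure D2:**
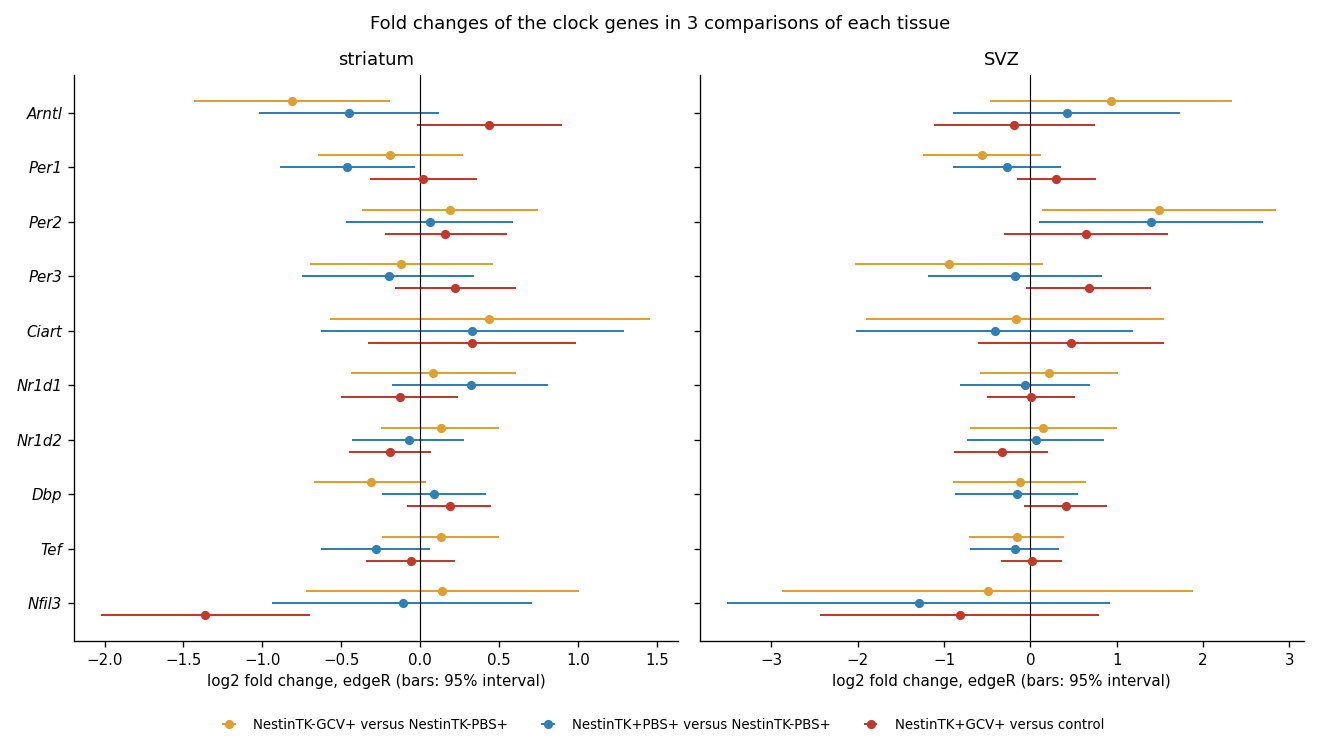
edgeR log2 fold changes (horizontal axes, with 95% intervals by a normal approximation) of the 10 genes (rows) in 3 comparisons of each tissue. In the striatum the interval of Nfil3 in NestinTK+GCV+ mice, the contrast it was selected on, lies apart from 0, and the intervals of the other 9 genes in the same comparison include 0.

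Ablated against control SVZ gave 0 of 10 members at an adjusted p of 0.05 by edgeR, DESeq2 and limma-voom (0.00611% of genes by edgeR), and 0 at an unadjusted p of 0.05, where 9.81% of genes passed. The median log2 fold change of the members was 0.16, and that of all genes -0.03. Against NestinTK+PBS+ mice 0 members passed unadjusted (7.13% of genes), and against NestinTK-GCV+ mice 1 did (7.45%). That member was Per3, at 15.2 to 77.7 CPM in the ablated mice and 9.55 to 24.2 in NestinTK-GCV+ mice, with a log2 fold change of 1.31 (SE 0.52, adjusted p = 0.665).

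Per2 passed unadjusted in the SVZ comparisons with NestinTK-PBS+ mice. These had 11.4, 13.0 and 1.87 CPM, NestinTK-GCV+ mice 23.2, 32.1 and 19.0, and NestinTK+PBS+ mice 33.9, 12.8, 34.4 and 11.5. The lowest value, from NestinTK-PBS+ mouse 3, rested on 17 counts, and that mouse also had the lowest SVZ Arntl, 3.31 CPM. The log2 fold change was 1.49 (SE 0.69, adjusted p = 0.646) for NestinTK-GCV+ and 1.40 (SE 0.66, adjusted p = 1.00) for NestinTK+PBS+, each over NestinTK-PBS+. Per2 was 1 of 10 members passing unadjusted in both, against 7.65% and 2.69% of genes.

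**Figure D3:**
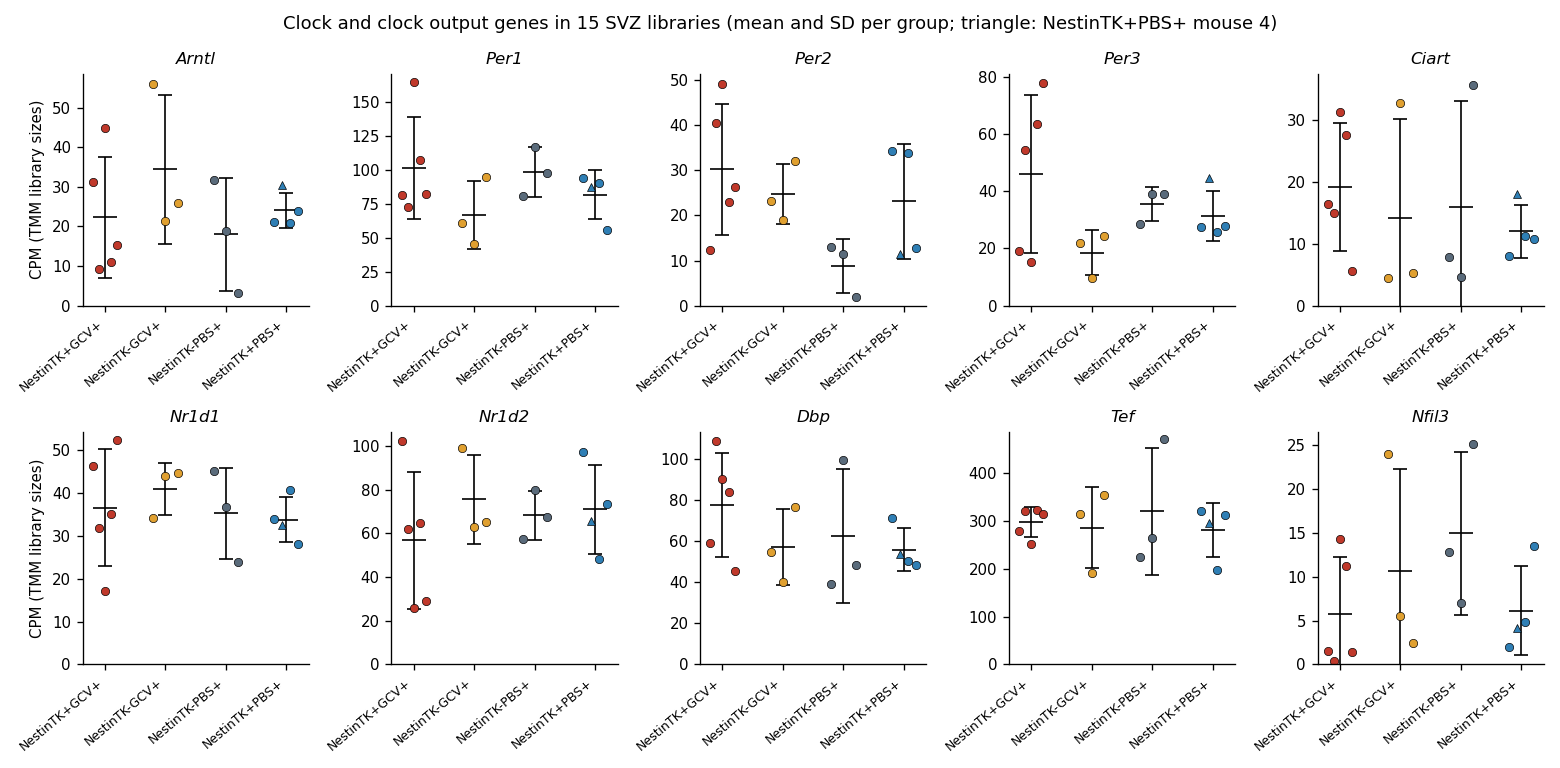
CPM (vertical axes, from 0) of the 10 genes in the 15 SVZ libraries, 1 point per mouse, with the mean and SD of each group (lower bars are cut at 0). All 10 genes overlap between ablated and control mice, including Nfil3, whose ablated points run from 0.3601 to 14.3 CPM.

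Since both tissues came from the same mice, an hour of collection that differed between mice would be shared by the pair of libraries of a mouse. The levels of the 2 tissues were therefore set against each other over the 15 mice, on log2 CPM, for each of the 10 genes. Per3 had the highest Pearson r, 0.51 (permutation p = 0.0521, adjusted over the 10 genes 0.521; Spearman's rho 0.35, permutation p = 0.195). It fell to 0.14 without NestinTK-GCV+ mouse 3 and ablated mouse 2, the 2 farthest from the striatal median. Leaving these out also narrows the range of striatal values. Centred on group means, r was 0.49 for Per3.

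The other genes lay lower. The r was 0.29 for Per2, 0.25 for Per1, 0.17 for Nfil3, 0.09 for Tef, 0.06 for Nr1d2, -0.01 for Nr1d1, -0.02 for Dbp, -0.19 for Ciart and -0.37 for Arntl. Apart from Nfil3, no gene passed at an adjusted or an unadjusted permutation p of 0.05. The r of Nfil3, which was -0.36 centred on group means, is a description with no test, since its striatal values led to its choice. Nfil3 was nevertheless among the 10 genes of the adjustment and of the median and count below. The median r of the members was 0.07, and over all 14197 genes tested in both tissues it was 0.04, with 5th and 95th percentiles of -0.41 and 0.49. Of all genes, 55.8% had an r above 0, and of the 10 members 6 did. Dbp had r = 0.05 without its 2 farthest mice and -0.27 within groups.

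**Figure D4:**
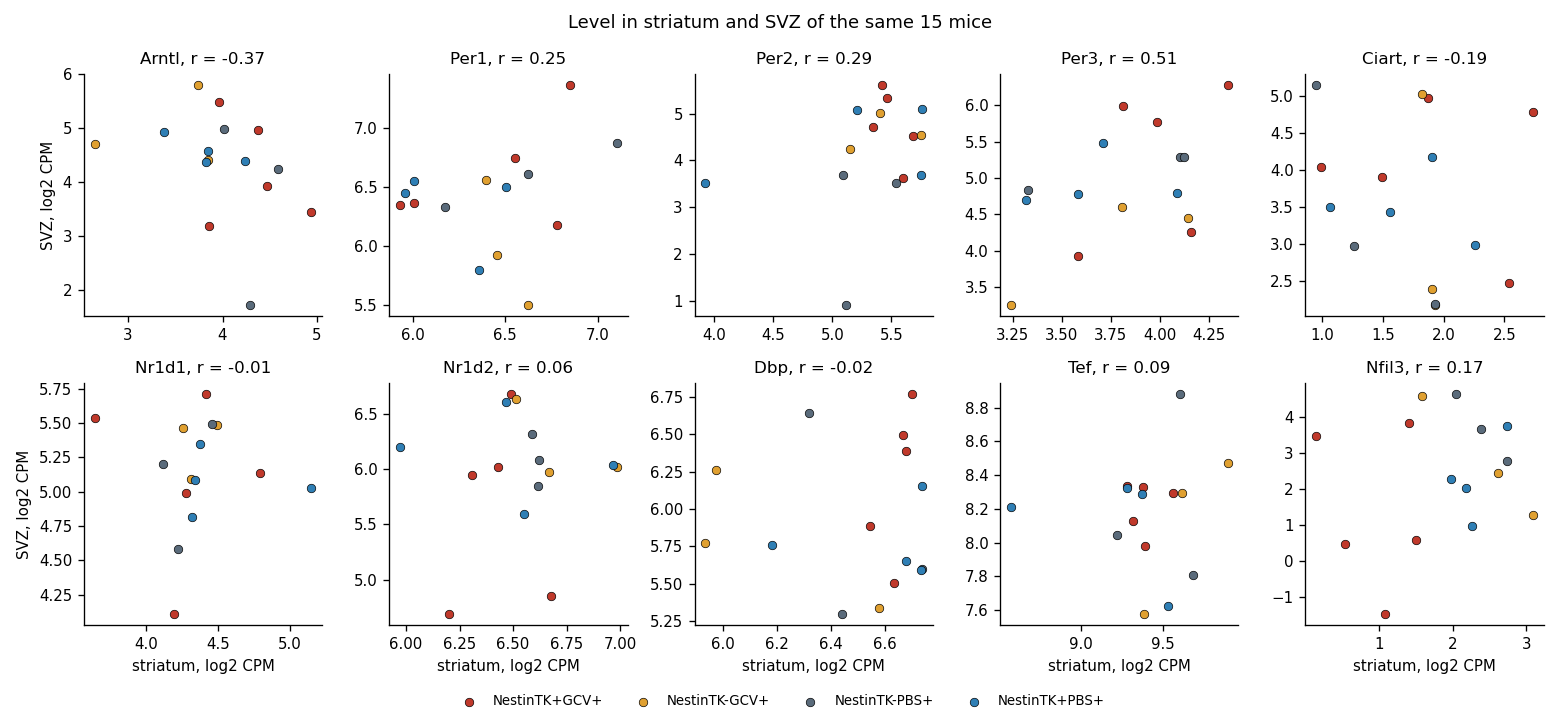
log2 CPM in the striatum (horizontal axes) and the SVZ (vertical axes) of the same 15 mice for the 10 genes, coloured by group, with Pearson's r of log2 CPM computed with a prior count of 2. The points scatter without a shared order for most genes, and r runs from -0.37 (Arntl) to 0.51 (Per3).

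Within a tissue, genes that peak at the same hour would rise and fall together over mice taken at different hours. Of the 45 pairs of members, 0 passed an adjusted permutation p of 0.05 in the striatum (lowest 0.307) and 0 in the SVZ (lowest 0.535), with 5 and 2 passing unadjusted on Pearson's r. The striatal pairs that hold Nfil3, 1 of these 5, are given as descriptions with no test. Among the 28 pairs of the 8 genes with daytime or dusk peaks (Per1 to Per3, Ciart, Nr1d1, Nr1d2, Dbp and Tef), r was above 0 for 12 in the striatum and 14 in the SVZ, with medians of -0.04 and 0.00. The peaks of these 8 genes are spread from day to dusk. Pairs among them need not rise together, so these counts do not test collection hour. Arntl peaks about opposite to Dbp, Per and Nr1d1. Its r was above 0 with 5 of the 8 in the striatum and 3 of the 8 in the SVZ.

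In the striatum, Dbp and Arntl had r = 0.58 (permutation p = 0.0245, adjusted 0.307; Spearman's rho 0.36, permutation p = 0.187), and r was 0.24 without NestinTK-GCV+ mice 1 and 2. Per2 and Nr1d1 had r = -0.59 (permutation p = 0.048, adjusted 0.432; Spearman's rho -0.24, permutation p = 0.392), which was -0.04 without NestinTK+PBS+ mouse 4. Per2 and Nr1d2 had r = -0.61 (permutation p = 0.0221, adjusted 0.307; Spearman's rho -0.70, permutation p = 0.00549), and -0.47 without that mouse. Nfil3 and Arntl, the pair that share the receptor core printed above, had r = -0.56 in the striatum (Spearman's rho -0.38), -0.29 without ablated mice 2 and 3, and 0.09 in the SVZ. Dbp and Nr1d2 had r = -0.59 (permutation p = 0.0196, adjusted 0.307; Spearman's rho -0.52, permutation p = 0.0501).

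In the SVZ, Dbp and Per1 had r = 0.57 (permutation p = 0.026, adjusted 0.535; Spearman's rho 0.54, permutation p = 0.0383), and 0.71 without NestinTK-PBS+ mouse 1 and ablated mouse 1. In the striatum the same pair had r = 0.06. Per3 and Arntl, of opposite phase, had r = -0.52 in the SVZ (permutation p = 0.049, adjusted 0.535; Spearman's rho -0.64, permutation p = 0.012), and -0.66 without NestinTK-GCV+ mouse 3 and ablated mouse 2. In the striatum their r was 0.26.

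The genes whose striatal pattern was most like Dbp over the 15 libraries, out of 8802 with a mean of at least 10 CPM, were Acvr1b (r = 0.90), Ppp2r2b (0.88), Grik5, Sirpa and Prrt2 (each 0.86). For Nfil3 they were Txndc16 (0.87), Taldo1 and Naa25 (each 0.84), Ctsz and Zfp771 (each 0.81). None of the 10 is in the lists of clock genes used here, and in the SVZ the r of these pairs ran from -0.69 (Naa25 with Nfil3) to 0.51 (Zfp771 with Nfil3).

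The wider loop was read from 15 further core clock genes, all tested in both tissues. In the striatum, 2 of the 15 passed an adjusted p of 0.05 between NestinTK-GCV+ and NestinTK-PBS+ mice, with 1 lower and 1 higher under GCV, where 2.06% of all genes passed. None passed between NestinTK+PBS+ and NestinTK-PBS+ mice (2 unadjusted, against 6.41% of all genes). None passed between ablated and control mice by edgeR (1 unadjusted, against 1619 of 15419 genes).

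Bhlhe41, a repressor of the loop at E-boxes, fell in NestinTK-GCV+ striata. They had 49.5, 48.0 and 59.97 CPM, and NestinTK-PBS+ striata 131, 59.3 and 158. The groups overlapped at 59.97 and 59.3 CPM. The log2 fold change was -1.14 (SE 0.24, adjusted p = 0.0185). Ablated mice had 86.1 to 127 CPM, all above the NestinTK-GCV+ mice (log2 fold change 1.04, SE 0.22, adjusted p = 0.0129). Of all genes, 3.13% passed an adjusted p of 0.05 between these groups. The share that separates in this way was not counted, so nothing is read from the separation. How far this call depends on single mice is not given here. The call under GCV alone was lost without NestinTK-PBS+ mouse 1 or 3 or NestinTK-GCV+ mouse 1 or 2 (adjusted p from 0.0596 to 0.158).

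Cry2, a cryptochrome and so a repressor of the Arntl and Clock pair, rose under GCV in mice without the transgene, from 76.5, 72.8 and 74.1 CPM to 103, 130.1 and 111 (log2 fold change 0.62, SE 0.17, adjusted p = 0.049). This value sits at the threshold, and the adjusted p rose above 0.05 when any of 12 mice was left out, reaching 0.285 without NestinTK-GCV+ mouse 2.

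Of the other named genes, Npas2, which can replace Clock, had a log2 fold change of -0.96 (SE 0.31, adjusted p = 0.108), with 10.9, 10.0 and 10.9 CPM under GCV and 20.02, 13.5 and 28.3 under PBS. Clock was at 0.11 (SE 0.20), Cry1 at 0.40 (SE 0.23), Hlf, another D-box activator, at -0.21 (SE 0.14) and Bhlhe40 at -0.48 (SE 0.33), none past an adjusted p of 0.05.

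Cell type markers moved in the same striatal comparison of NestinTK-GCV+ with NestinTK-PBS+ mice. Of all genes, 2.06% passed an adjusted p of 0.05 there and 16.1% an unadjusted one. Of 5 ependymal markers 2 were lower at an adjusted p of 0.05 (median log2 fold change -1.77), and their sum was 9.01 to 14.4 CPM under GCV and 29.4 to 49.6 under PBS. Of 5 oligodendrocyte markers 2 were lower (median -0.33), with sums of 1924 to 2599 and 2773 to 4182 CPM. Of 5 markers of cortical excitatory neurons 2 were higher (median 4.23), with sums of 7.61 to 615 CPM under GCV and 6.98 to 10.7 under PBS, and 1 of 5 endothelial markers was lower. The lists for astrocytes, microglia, neuroblasts, medium spiny neurons, thalamus and choroid plexus held 0 calls by edgeR at an adjusted p of 0.05 (unadjusted, 2 for microglia, 1 each for astrocytes and choroid plexus and 0 for the rest). The part of these markers in the Arntl, Bhlhe41, Cry2 and Npas2 values was not tested.

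For Bhlhe41 the difference between GCV and PBS striata varied with the transgene. The interaction was 1.32 (SE 0.31, adjusted p = 0.0445 by edgeR) on the log2 scale, where 0.817% of genes and 0 of the 10 members passed. This value sits near the threshold, and its dependence on single mice is not given here. The interaction was added after seeing the data. Among the members, Arntl had an interaction of 1.32 (SE 0.41) and Nfil3 of -1.39 (SE 0.60).

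In the SVZ of the same mice these differences were not shown. NestinTK-GCV+ over NestinTK-PBS+ was 0.38 (SE 0.37, adjusted p = 0.888) for Bhlhe41, on the other side of 0 from the striatum, and 0.37 (SE 0.27, adjusted p = 0.812) for Cry2. Of the 15 genes, 0 passed there by edgeR at an adjusted or unadjusted p of 0.05, the latter against 7.65% of all genes. The difference between tissues was not tested, since their libraries were made with different kits and counted separately. In ablated against control SVZ 0 of the 15 passed adjusted and 3 unadjusted, where 9.81% of all genes passed unadjusted. None of the 10 members had all 5 ablated SVZ libraries above the 10 controls, as 0.11% of genes did.

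**Figure D5:**
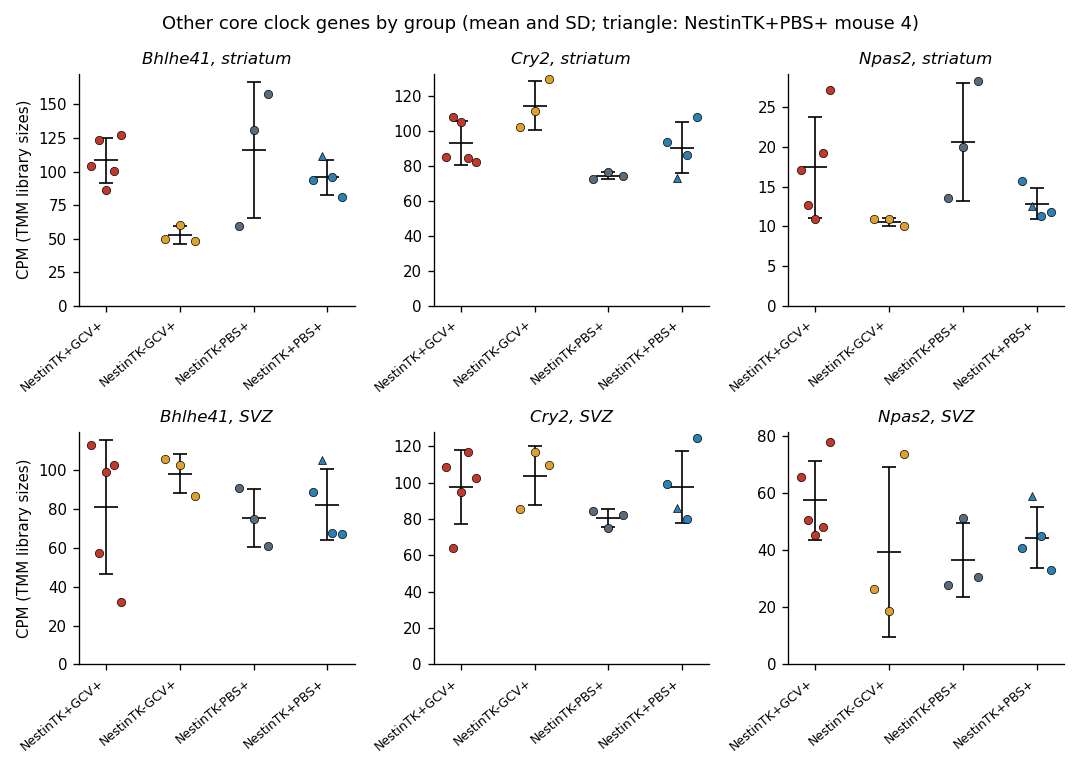
CPM (vertical axes, from 0) of Bhlhe41, Cry2 and Npas2 in the striatum (top) and SVZ (bottom), 1 point per mouse, with the mean and SD of each group. In the striatum the 3 NestinTK-GCV+ points of Bhlhe41 lie between 48.0 and 59.97 CPM, and the triangle is NestinTK+PBS+ mouse 4.

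There were 5 clock output genes outside the members (Usp2, Wee1, Nampt, Coq10b and Lonrf3). By edgeR they gave 0 calls at an adjusted p of 0.05 in every comparison of both tissues. Unadjusted, 1 passed, in the striatum between NestinTK-GCV+ and NestinTK-PBS+ mice, where 16.1% of all genes did. Their summed level was 142 to 187 CPM in the striatum and 152 to 239.6 in the SVZ. Lists of genes that follow corticosterone (9 genes) and temperature (7), other daily cues, were also summed. In the striatum the corticosterone list was 1583 to 1833 CPM in NestinTK-GCV+ mice and 2031 to 2396 in NestinTK-PBS+ mice. Of its 9 genes 1 was lower at an adjusted p of 0.05, where 2.06% of all genes passed. The temperature list ran from 603 to 786 CPM over all groups, with no gene passing. Their part in the Bhlhe41 and Cry2 differences was not tested.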

How the data were processed

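Per the labels and Methods, SVZ RNA was amplified with SMART-Seq v4 and striatum RNA made into QuantSeq 3′ libraries. The authors trimmed reads (Trimmomatic), aligned them to mm10 with STAR 2.5.3a and counted genes with featureCounts, and deposited raw gene counts, 1 table per tissue. The strand setting is not given in the sources used here. The submitters' processing notes name Trimmomatic 0.36.

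The members and lists were chosen with earlier results of these data known. Each tissue was fitted apart, keeping genes above 1 CPM in 3 or more libraries, with edgeR 4.0.16 (R 4.3.3) on TMM-scaled counts, ablated against the 3 control groups pooled, and all 4 groups in a separate fit. The study used limma, and a count model was used here because the unit is counts. Alternatives were DESeq2 1.42.0, limma-voom 3.58.1, DESeq2 size factors, no filter, a mouse number series covariate, the SVZ without libraries over 1% Ttr, and each mouse left out. Relations used log2 CPM (prior count 2) and 100000 permutations, two-sided (scipy 1.17.1). SDs are of CPM. Named genes were all members, 7 core clock genes and the 5 genes most like Dbp and Nfil3. A gene of the core clock list was left out and is not reported here. Gene places are from GENCODE and sequences from RefSeq.

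On simulated counts with 200 genes changed 4-fold (log2 2), edgeR called 163 at an adjusted p of 0.05 in the striatum design of ablated against control (14998 genes) and 86 in the SVZ design (15616 genes). Counting intervals cover counting error only.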

Additional observations from a re-analysis of the deposited data

Results flagged for a closer look

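In 40 groups of 4 or 5 libraries tested for a stray value (10 genes, 2 tissues and the NestinTK+GCV+ and NestinTK+PBS+ groups), 4 had a library far from the others of its group, and chance alone gives about 5% of groups. In the striatum, mouse 4 had the lowest Dbp of the NestinTK+PBS+ group, 72.6 CPM against 102 to 107, and the highest Nr1d1, 35.5 CPM against 19.9 to 20.7. In the SVZ the same mouse had the highest Per3 of its group, 44.5 CPM against 25.9 to 27.8, and mouse 2 the lowest Per1, 55.6 CPM against 87.7 to 93.9. NestinTK+PBS+ mouse 4 is the one with high thalamus markers in both tissues and high choroid plexus markers in the striatum. The part of these markers in its values was not tested. For Bhlhe41 the interaction of genotype and treatment in the striatum was 1.32 (adjusted p = 0.0445 by edgeR), a value near the threshold. It was added after seeing the data, and its dependence on single mice is not given here.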

How the results depend on the processing

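The number of members called at an adjusted p of 0.05 stayed 0 in the SVZ comparisons, in the relations between tissues and between members, and in the striatum comparisons without ablated mice, under every alternative run. With ablated mice in the striatum, DESeq2 called 1 member against control, Nfil3, where the alternatives called 25 to 144 of all genes. Against NestinTK-GCV+ mice 1 member was called by DESeq2, without the filter and with the mouse number series as a covariate. The alternatives called 369 to 981 of all genes there. With each mouse left out, 0 to 1 member was called (1 without ablated mouse 5, NestinTK-GCV+ mouse 1 or 3, NestinTK-PBS+ mouse 2 or NestinTK+PBS+ mouse 4), against 46 to 989 of all genes. For the interaction DESeq2 and the fit without the filter called 1 member each, where the alternatives called 2 to 673 of all genes. These comparisons hold the mice on which Nfil3 was selected, so nothing is read from the counts of members. The log2 fold change of Nfil3 against control stayed between -1.52 and -1.21 with each mouse left out.

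Between NestinTK-GCV+ and NestinTK-PBS+ striata, the mouse number series as a covariate took Bhlhe41 to an adjusted p of 0.0922 and Cry2 to 0.211. All NestinTK-PBS+ mice are of the lower series, so this covariate cannot fully separate series from treatment here. In the same comparison limma-voom took Cry2 to 0.0529. With each mouse left out, the log2 fold change of Bhlhe41 ran from -1.46 to -0.86 (call kept in 11 of 15) and that of Cry2 from 0.52 to 0.70 (3 of 15). Between NestinTK+PBS+ and NestinTK-PBS+ striata, Bhlhe41 ran from -0.59 to 0.01, the last without NestinTK-PBS+ mouse 3. The causes were not tested. No paired analysis was possible because replicate numbers here only name mice and pair none across groups.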
